A study of Mus musculus with 12 samples.

Results

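The genes described here belong to the BMP and activin branch of the TGF-beta superfamily and its Id targets. They were chosen by symbol: the ligand gene Bmp2, the type I receptor genes Bmpr1a, Acvr1 and Acvrl1, the type II receptor genes Bmpr2 and Acvr2a, the signal transducer gene Smad1, and the target genes Id1, Id2 and Id3. All 10 were found among the 25904 genes of the deposited table, and 8 of them reached the level needed for a test. Id1 and Id3 did not, and Bmpr1a reached it in the microglia libraries alone.

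Expression was measured by RNA-seq in 12 libraries from sorted C57BL/6 mouse cells, 3 libraries in each of 4 groups. Microglia, the resident macrophages of the brain and spinal cord, came from mice with both Tgfbr2 alleles floxed (Tgfbr2fl/fl), either without Cre (WT) or with the tamoxifen-inducible CreER on 1 allele of Cx3cr1 (Cx3cr1CreER/+Tgfbr2fl/fl, KO). The macrophages descended from Tgfbr2fl/fl (WT) or Cx3cr1CreER/+Tgfbr2fl/fl (KO) bone marrow transplanted into irradiated Cx3cr1CreER/+R26DTA/+ recipients, in which tamoxifen 6 weeks later switched on diphtheria toxin in the recipients' own microglia. All groups received tamoxifen as 3 daily subcutaneous injections of 5 mg, and cells were collected 18 to 22 days afterwards. Sorted cells were Ly6C-negative and CD11b-positive; WT cells were taken from the F4/80-low gate and KO cells from the F4/80-high gate. The gate, the CreER allele and the loss of Tgfbr2 changed together and cannot be told apart. The microglia donors were not described as irradiated or transplanted, so cell origin and transplantation cannot be told apart either. The labels give no ages and say that 1 to 5 mice were pooled for each library, so every p-value measures differences among such pools.

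BMPs and activins are secreted dimers that assemble type I and type II receptor kinases into a complex on the cell surface. The type II kinase switches on the type I kinase, which phosphorylates receptor Smads: Smad1 and Smad5 after BMPs, Smad2 and Smad3 after activins and TGF-beta. Those Smads enter the nucleus with Smad4, and the Id genes are among the best known genes they switch on. Id proteins lack a DNA-binding region and hold E proteins, a class of helix-loop-helix transcription factors, away from DNA. Tgfbr2 itself is the type II receptor for TGF-beta and is not known as a receptor for BMPs or activins.

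Values are normalized counts, that is gene counts divided by a size factor for each library. Group values are given as mean ± SD over 3 libraries, log2 fold changes as ± SE on the log2(normalized count + 1) scale, and adjusted p-values are from limma with Benjamini-Hochberg adjustment over 12519 tested genes. The libraries held 2615404 to 6364994 reads in genes, and the shallowest was KO macrophage library 1. Tgfbr2, counted over the whole gene, had 2495 to 3172 normalized counts in WT microglia against 2078 to 2256 in the KO, and 2997 to 3486 in WT macrophages against 2068 to 2469 in the KO; such a count also holds reads outside a deleted part. Pan-macrophage marker genes (8 genes, among them Csf1r and Cd68) summed to 46230 to 52250 in WT microglia, 30960 to 32470 in KO microglia, 29570 to 31310 in WT macrophages and 30240 to 31720 in KO macrophages. Of these 8 genes 4 were lower and 2 higher in KO microglia, beside 20.6% and 21.9% of all tested genes. The 6 microglia markers, such as Tmem119, summed to 44530 to 58760 in WT microglia, 4537 to 5007 in KO microglia, 15080 to 15630 in WT macrophages and 5076 to 5552 in KO macrophages.

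Bmp2 (ENSMUSG00000027358, GRCm38 chr2:133552159-133562885, plus strand) encodes a ligand that signals through Bmpr1a with Bmpr2. In WT microglia its normalized counts were 2.64, 1.29 and 1.035, which rested on 5 reads in all. The KO microglia libraries held 342.7, 330.4 and 335.2. The WT libraries were near the limit of detection, and the KO libraries lay close together at a level above every other library of the series. Bmp2 rose from 1.66 ± 0.86 to 336.1 ± 6.24, a log2 fold change of 7.04 ± 0.35 (adjusted p = 2.59e-10, limma), and the ratio of reads scaled to depth was 193 with a 95% counting interval of 82.6 to 597. The change was thus large against both the counting error and the spread between pools.

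In macrophages Bmp2 was measurable without the knockout. WT macrophage libraries held 14.6, 14.0 and 14.8 normalized counts. The KO macrophage libraries held 241.7, 85.5 and 81.2, all above the WT libraries, with library 1 far above the others. The rise in macrophages was 2.96 ± 0.35 on the log2 scale (adjusted p = 1.39e-05, limma) and 2.45 without KO macrophage library 1 (adjusted p = 2.81e-06). Among WT cells Bmp2 was higher in macrophages than in microglia by 2.59 ± 0.35 (adjusted p = 2.97e-05), a ratio of reads of 8.35 with a 95% counting interval of 3.33 to 27.0. Among KO cells the order was the opposite: macrophages were lower than microglia by a log2 difference of -1.49 ± 0.35 (adjusted p = 0.0117, limma). That last call was lost without KO microglia library 1 (adjusted p = 0.0519), KO macrophage library 2 (0.0597) or KO macrophage library 3 (0.0568), and it was -1.999 without KO macrophage library 1 (5.51e-05). The knockout effect itself was smaller in macrophages than in microglia, with a difference of -4.08 ± 0.50 on the log2 scale (adjusted p = 2.3e-05 for the interaction, limma). WT microglia held 5 reads in all, so the sizes of the differences against them depend on the added count. With a pseudocount of 8 in place of 1 the interaction was -2.65 (adjusted p = 0.000119), the rise 5.16 in microglia and 2.51 in macrophages, and the difference between the WT cell types 1.22 (adjusted p = 0.00274).

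**Figure D1:**
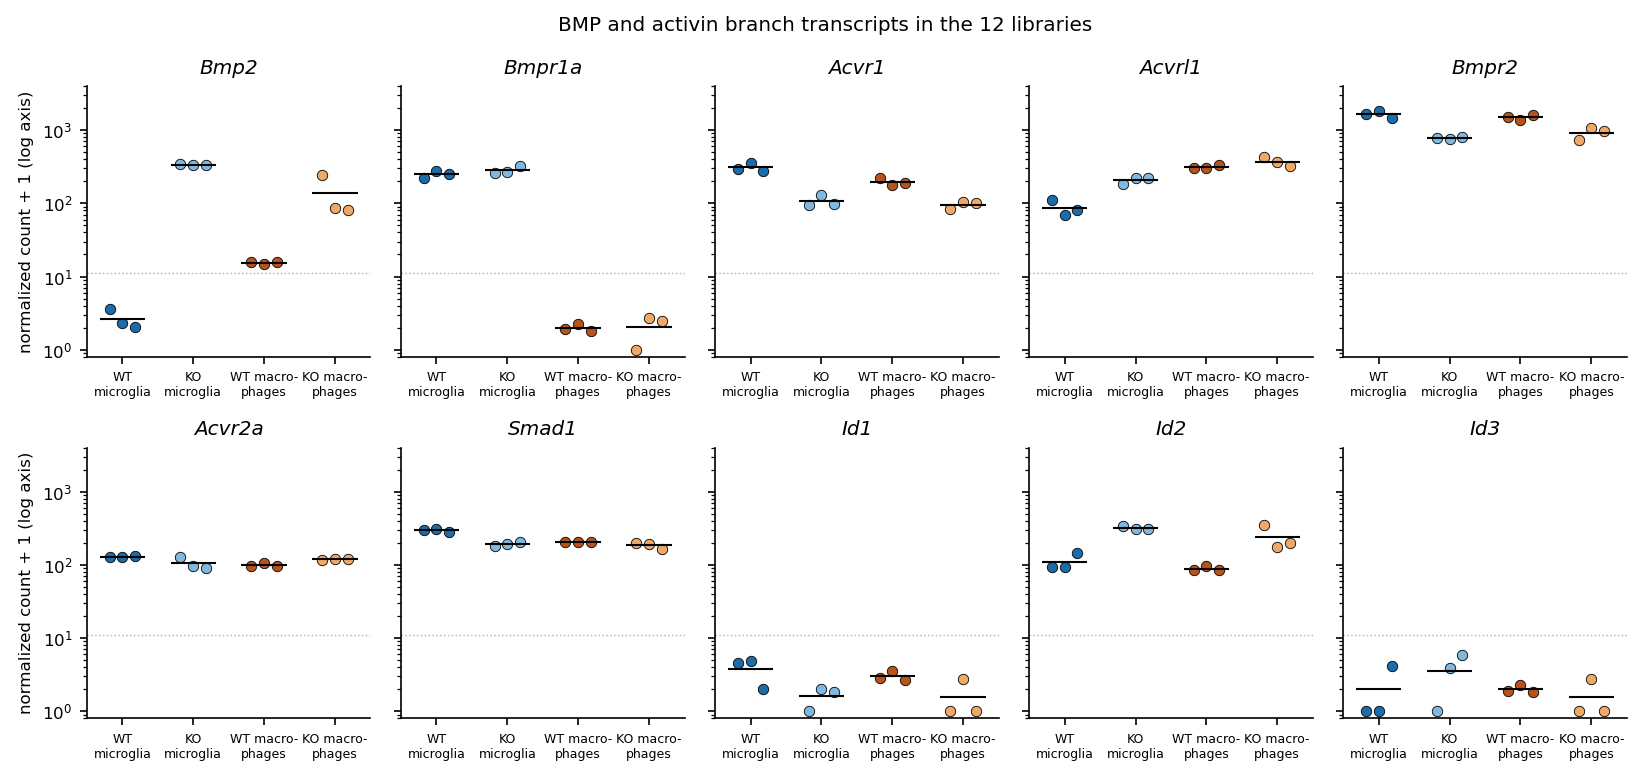
Normalized count + 1 on a log axis for the 10 transcripts, with 1 point per library in each of 4 groups and a horizontal bar at the group mean. The dotted line marks the minimum of 10 normalized counts; Bmp2 lies under it in WT microglia and near 336.1 in KO microglia, Bmpr1a lies under it in all 6 macrophage libraries, and Id1 and Id3 lie under it everywhere.

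Bmpr1a (ENSMUSG00000021796, chr14:34410734-34503341, minus strand), the type I receptor that Bmp2 binds with high affinity, separated the cells by origin. WT microglia held 219.4, 273.1 and 249.4 normalized counts, and KO microglia 260.2, 266.4 and 319.1. WT macrophages held 0.910, 1.27 and 0.823, and KO macrophages 0, 1.75 and 1.44. No macrophage library came near any microglia library, and the WT and KO ranges overlapped within each cell type. In reads, 702 fell on Bmpr1a in WT microglia against 3 in WT macrophages, a depth-scaled ratio of 252 with a 95% counting interval of 85.9 to 1226. KO microglia had 933 reads against 4 in KO macrophages, a ratio of 225 with an interval of 87.6 to 827. The fitted log2 differences between macrophages and microglia were -6.96 ± 0.34 in WT cells and -7.22 ± 0.34 in KO cells. At so few macrophage reads these depend on the added count of 1. Bmpr1a reached 10 normalized counts in the microglia libraries alone. It was thus tested through the cell type where it was high, and no p-value is given for these differences. The knockout difference in microglia was 0.19 (95% interval -0.54 to 0.92, adjusted p = 0.706, limma). In macrophages the 3 and 4 reads allow no comparison between genotypes. KO microglia were thus the only group in which both Bmp2 and Bmpr1a exceeded 10 normalized counts.

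The other type I receptor genes moved in opposite directions. Acvr1 (ENSMUSG00000026836, chr2:58388644-58567157, minus strand) encodes ALK2, a receptor for BMPs that also binds activin. Its WT microglia libraries held 297.0, 353.0 and 278.4 normalized counts and the KO microglia libraries 92.3, 128.8 and 97.3. WT macrophages held 219.4, 176.7 and 186.0, and KO macrophages 81.6, 103.0 and 98.4. Every KO library was below every WT library in both cell types. Acvr1 fell by 1.54 ± 0.15 on the log2 scale in microglia (adjusted p = 6.1e-07, limma) and by 1.03 ± 0.15 in macrophages (adjusted p = 9.97e-05). Among WT cells it was lower in macrophages by a log2 difference of -0.67 ± 0.15 (adjusted p = 0.00246), and among KO cells the difference was -0.16 (95% interval -0.48 to 0.16, adjusted p = 0.588). The knockout effects in the 2 cell types differed by 0.51 ± 0.21 with an adjusted p of 0.0952 for the interaction (limma), which passed the threshold without KO microglia library 2 (0.0348) or without KO macrophage library 1 (0.0341).

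Acvrl1 (ENSMUSG00000000530, chr15:101128522-101145336, plus strand) encodes ALK1, a type I receptor best known in vessel endothelium. WT microglia held 108.4, 68.3 and 79.7 normalized counts, and KO microglia 181.7, 220.2 and 218.6. The macrophage libraries were higher again, at 304.0, 298.7 and 327.6 in WT and 427.4, 366.5 and 319.6 in KO. The microglia groups did not overlap, whereas the lowest KO macrophage library lay within the WT macrophage range. On the log2 scale Acvrl1 rose by 1.29 ± 0.15 in KO microglia (adjusted p = 6.03e-06, limma), while the difference in macrophages was 0.25 (95% interval -0.08 to 0.58, adjusted p = 0.24). The interaction was -1.04 ± 0.22 (adjusted p = 0.00265). Macrophages exceeded microglia by 1.87 ± 0.15 among WT cells (adjusted p = 1.46e-07) and by 0.84 ± 0.15 among KO cells (adjusted p = 0.00194). The 7 of 8 listed vessel endothelium markers in the table summed to 192.5 to 300.5 in WT microglia, 99.2 to 128.6 in KO microglia, 86.4 to 94.7 in WT macrophages and 110.4 to 197.2 in KO macrophages. Pecam1, which leukocytes also express, gave 114.9 to 227.4 of the sum in WT microglia. Of the 4 testable markers, 1 was higher and 3 were lower in WT macrophages than in WT microglia, beside 19.2% and 20.2% of all tested genes. The higher one was Flt1, with 9.404 ± 3.07 normalized counts in microglia and 44.3 ± 9.33 in macrophages of the WT, against 6.402 ± 1.48 and 17.1 ± 11.2 in the KO; it was named after its values were seen. Tek, Emcn and Esam were under 5 normalized counts in every library. The part of endothelial RNA in the Acvrl1 differences was not tested.

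Of the type II receptor genes, Bmpr2 (ENSMUSG00000067336, chr1:59763400-59879014, plus strand), which pairs with the BMP type I receptors, had the highest level per exon length of the 5 receptor genes in both WT groups. WT libraries held 1677, 1822 and 1476 normalized counts in microglia and 1529, 1385 and 1614 in macrophages. KO libraries held 777.8, 758.0 and 815.1 in microglia and 739.5, 1061 and 958.8 in macrophages. All KO libraries were below all WT libraries, and within a genotype the 2 cell types overlapped. Bmpr2 fell by 1.08 ± 0.12 on the log2 scale in microglia (adjusted p = 2.1e-06, limma) and by 0.73 ± 0.12 in macrophages (adjusted p = 0.000249). The difference between these effects was 0.35 ± 0.17 (adjusted p = 0.142); without KO macrophage library 1, the lowest of its group, it was 0.50 (adjusted p = 0.00666). Likewise, KO macrophages against KO microglia gave 0.22 (adjusted p = 0.305), and 0.36 without that library (adjusted p = 0.0148).

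Acvr2a (ENSMUSG00000052155, chr2:48814109-48903269, plus strand) encodes a type II receptor that binds activins and several BMPs. Microglia held 128.7, 126.3 and 131.4 normalized counts in WT and 128.6, 94.4 and 90.8 in KO. Macrophages held 96.5, 104.2 and 93.8 in WT and 115.2, 119.5 and 118.5 in KO. The microglia groups overlapped through KO library 1, and the macrophage groups did not overlap. The knockout differences were -0.31 in microglia (95% interval -0.61 to -0.02, adjusted p = 0.082, limma) and 0.26 in macrophages (95% interval -0.03 to 0.56, adjusted p = 0.168). The former passed the threshold without KO microglia library 1 (-0.47, adjusted p = 0.0101). The interaction of 0.58 ± 0.20 (adjusted p = 0.0423) and the difference between WT macrophages and WT microglia of -0.39 ± 0.14 (adjusted p = 0.0365) passed, but the former did not pass in 14 of 19 alternatives, among them leaving out each of 10 single libraries, and the latter in 7 of 20. Exons of Acvr2a share 446 bases with Orc4 on the opposite strand, which reached 351.4 normalized counts, and the strand setting of the counting is not given in the sources used here, so the values of Acvr2a are uncertain.

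**Figure D2:**
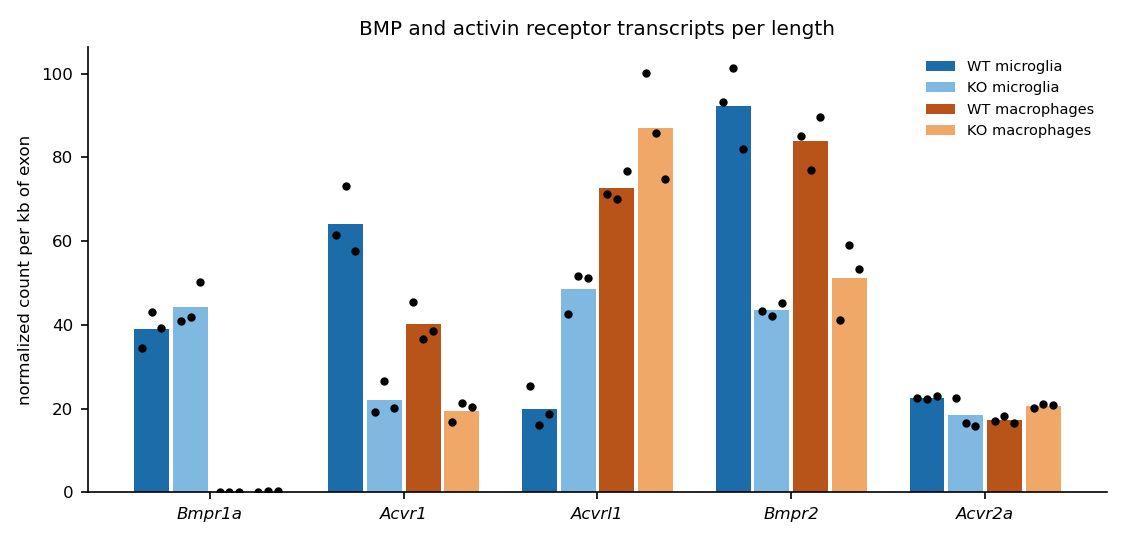
Normalized count per kb of exon for the 5 receptor genes; bars are group means, points are the 3 libraries, and colours mark the 4 groups. Bmpr2 is the tallest in both WT groups, Acvrl1 is the tallest in KO macrophages at 87.0, and Bmpr1a is near 0 in both macrophage groups.

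Divided by exon length, the receptor levels had a different order in each group. In WT microglia Bmpr2 stood at 92.2 ± 9.66 normalized counts per kb, followed by Acvr1 at 64.1 ± 8.04, Bmpr1a at 38.9 ± 4.24, Acvr2a at 22.6 ± 0.457 and Acvrl1 at 20.04 ± 4.85. Only the last 2 overlapped. In KO microglia Acvrl1 (48.5 ± 5.12), Bmpr1a (44.4 ± 5.09) and Bmpr2 (43.6 ± 1.61) overlapped each other at the top, and Acvr1 (22.0 ± 4.10) overlapped Acvr2a (18.4 ± 3.67) below them. WT macrophages had Bmpr2 (83.9 ± 6.43) above Acvrl1 (72.7 ± 3.604) and Acvr1 (40.2 ± 4.65), with no overlap. KO macrophages had Acvrl1 (87.0 ± 12.7) above Bmpr2 (51.2 ± 9.14), again without overlap.

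Smad1 (ENSMUSG00000031681, chr8:79338395-79399518, minus strand) carries the signal of BMP receptors to the nucleus. WT microglia held 301.4, 307.9 and 283.6 normalized counts, and KO microglia 178.7, 193.7 and 202.6. In macrophages the WT libraries held 206.6, 204.6 and 202.5 and the KO libraries 198.5, 189.3 and 164.5. WT microglia stood above all 9 other libraries, which lay close together. In KO microglia Smad1 fell by 0.63 ± 0.10 on the log2 scale (adjusted p = 8.9e-05, limma). The difference in macrophages was -0.16 (95% interval -0.37 to 0.06, adjusted p = 0.252), although its groups did not overlap. WT macrophages were lower than WT microglia by a log2 difference of -0.54 ± 0.10 (adjusted p = 0.000495), and KO macrophages differed from KO microglia by -0.06 (95% interval -0.27 to 0.15, adjusted p = 0.775). The interaction was 0.48 ± 0.14 (adjusted p = 0.0209); it missed the threshold in 5 of 19 alternatives, 2 of which left out a single library (WT microglia library 2, adjusted p = 0.0512, and KO microglia library 1, 0.0544).

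Of the Id genes, only Id2 (ENSMUSG00000020644, chr12:25093799-25097140, minus strand) was expressed at a testable level. Its WT libraries held 93.4, 92.8 and 142.8 normalized counts in microglia and 84.7, 94.0 and 83.1 in macrophages. KO libraries held 333.9, 308.7 and 305.5 in microglia and 352.1, 175.4 and 195.3 in macrophages. Every KO library was above every WT library, and KO macrophage library 1 was again the highest of its group. Id2 rose by 1.55 ± 0.22 on the log2 scale in microglia (adjusted p = 3.17e-05, limma) and by 1.39 ± 0.22 in macrophages (adjusted p = 0.000198), or by 1.08 in macrophages without KO library 1 (adjusted p = 7.99e-05). The interaction was -0.16 (95% interval -0.82 to 0.50, adjusted p = 0.748). The cell types differed by -0.30 among WT cells (adjusted p = 0.307) and by -0.46 among KO cells (adjusted p = 0.229), the latter being -0.77 without KO macrophage library 1 (adjusted p = 0.00363). Per kb of exon, Id2 was the highest of the 10 genes in KO microglia at 130 ± 6.38.

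Id1 (ENSMUSG00000042745, chr2:152736251-152737410, plus strand) gave 8 reads over the WT microglia libraries, 2 over KO microglia, 6 over WT macrophages and 2 over KO macrophages. Id3 (ENSMUSG00000007872, chr4:136143497-136145755, plus strand) gave 3, 9, 3 and 2 reads in the same order of groups. No library reached 10 normalized counts for either gene; the highest single values were 3.86 for Id1, in a WT microglia library, and 4.82 for Id3, in a KO microglia library. The ratio of Id1 reads between WT and KO microglia was 4.56 with a 95% counting interval of 0.91 to 44.1, so a difference was not detectable at this depth. When all 25904 genes were tested without a minimum, limma's adjusted p-values lay between 0.164 and 0.99 for Id1 and between 0.476 and 0.842 for Id3 over the 5 comparisons.

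Promoter sequences of 7 of the 10 genes were available from RefSeq (GRCm38.p6; 250 bases before to 50 after the annotated start), those of Bmp2, Acvrl1 and Id1 not being in the table. The 6-base palindrome GGCGCC, at the core of the BMP response element known from Id1, and the Smad-binding motif CAGAC were searched on both strands, and no matches overlapped. GGCGCC was found in 3 of the 7 windows, against 11.87% of 32851 promoters of the same length, and CAGAC in 2 of 7, against 49.59%. The 30 bases around the matches are printed 5′ to 3′ on each gene's strand, with the motif in capitals, to show what the windows of the Id genes hold beside those of the receptors.
Id2, chr12:25096306-25096335, minus strand, intron of the longest GENCODE model: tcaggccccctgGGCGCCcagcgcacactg
Bmpr1a, chr14:34502727-34502756, minus strand, intron of the longest GENCODE model: tgcgcgcgcgccGGCGCCtcttgctcgccc
Bmpr2, chr1:59764162-59764191, plus strand, exon: ctccggcggccgGGCGCCgctgcctgcccc
Id3, chr4:136143643-136143672, plus strand, exon: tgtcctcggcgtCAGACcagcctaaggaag
Id3, chr4:136143742-136143771, plus strand, exon: ggacccttggcgGTCTGttttgaataaggg
Acvr2a, chr2:48813909-48813938, plus strand, before the first exon: gcccgccgtcccGTCTGctcggtctcggtt
The 3 genes with GGCGCC were Id2, which rose in both knockouts, Bmpr2, which fell in both, and Bmpr1a, for which no knockout difference was called. The intron label of Id2 and Bmpr1a was set from the pooled exons of all GENCODE models of the gene. It marks a place between the outermost exon ends that no exon covers, and no longest model was picked. These matches begin 231 (Id2) and 198 (Bmpr1a) bases before the RefSeq start. A match describes letters only, and no match was found for Acvr1 and Smad1.

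Counted over the 8 tested genes, KO against WT microglia had 3 higher and 3 lower (42.5% of all tested genes were called, 21.9% higher and 20.6% lower). KO against WT macrophages had 2 higher and 2 lower (31.4% of all genes called, 16% higher and 15.4% lower). WT macrophages against WT microglia had 2 higher and 4 lower (39.4% called, 19.2% higher and 20.2% lower). KO macrophages against KO microglia had 1 higher and 2 lower (10.5% called, 5.45% higher and 5.05% lower). The interaction had 2 higher and 2 lower (25.8% called, 13% higher and 12.9% lower). The libraries of the groups compared did not overlap for 6, 6, 6 and 3 of the 8 genes in the first 4 comparisons, beside 55.2%, 45.2%, 53.9% and 27.1% of all tested genes. In both comparisons between cell types these counts and those of lower genes include Bmpr1a, which was tested through the microglia libraries alone. Median log2 differences of the 8 genes were -0.06, 0.08, -0.34, -0.11 and 0.09 in this order of comparisons, beside -0.011, 0.001, -0.003, -0.004 and 0.002 over all tested genes. The comparisons share groups of libraries, so these counts are not independent of each other. Fewer cells of a type and less RNA per cell cannot be told apart in such bulk libraries.

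**Figure D3:**
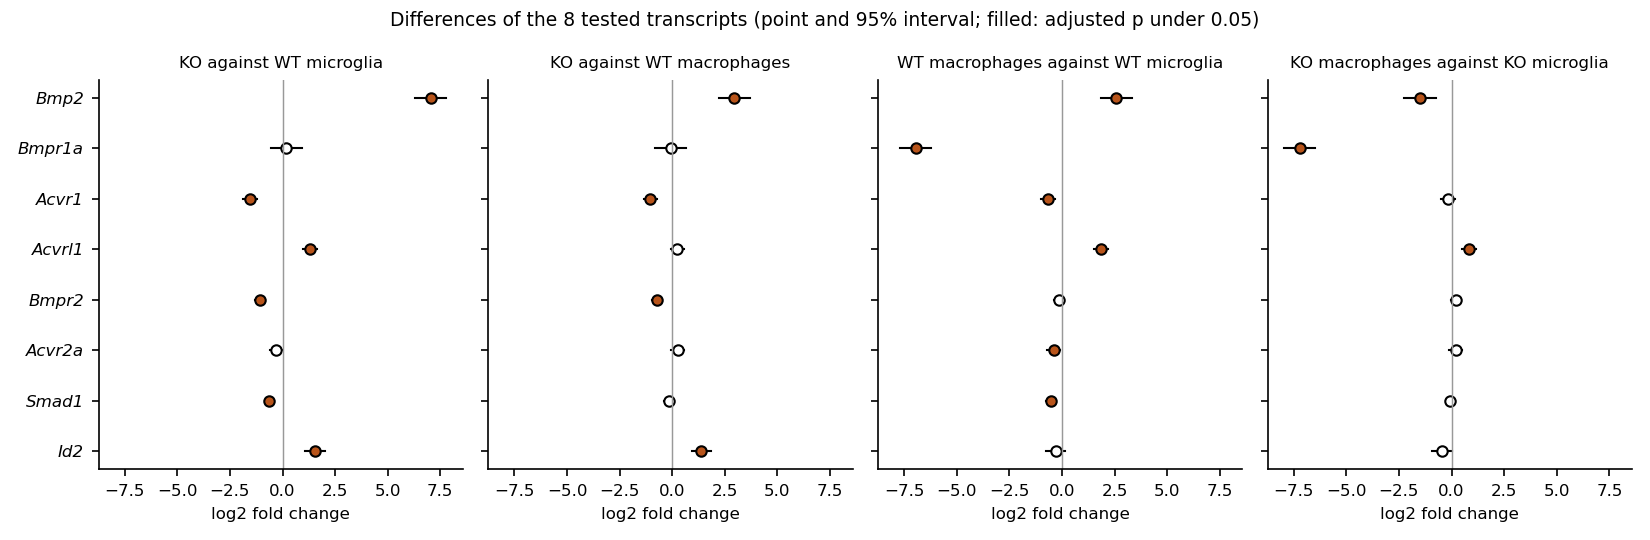
Log2 fold change with its 95% interval (bars) for the 8 tested genes in 4 comparisons; filled points passed an adjusted p of 0.05 in limma and open points did not. Bmp2 (7.04) and Bmpr1a (-6.96 and -7.22) lie far outside the range of the other genes. Bmpr1a was tested through the microglia libraries alone, where it was high.

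Further genes of the pathway were taken from 8 lists with 82 genes, of which 64 were in the table and 31 could be tested. In KO microglia 2 of the 31 rose and 15 fell, beside 21.9% higher and 20.6% lower among all tested genes. In KO macrophages 4 rose and 9 fell, beside 16% and 15.4%. These counts include genes tested through the groups where they were high: Gdf15 among the rises, Smad6 among the falls, and Lefty1 among the falls in microglia. Ligand genes were mostly silent: 3 of 18 BMP and GDF genes and 1 of 10 activin-type genes were testable. Gdf15, a divergent family member induced by cell stress, went from 7.22 ± 2.75 to 64.0 ± 8.30 normalized counts in microglia (log2 3.02 ± 0.45). In macrophages it went from 5.28 ± 0.949 to 82.5 ± 71.4 (3.42 ± 0.45, or 2.76 without KO macrophage library 1). Of the WT libraries, only WT microglia library 3 (10.35) reached 10 normalized counts. Gdf15 was thus tested through the KO libraries, where it was high, and no p-value is given. Gdf3, a divergent member close to Gdf1, had 225 reads over the WT macrophages (74.7 ± 14.7) and none over the WT microglia, at least 69.6-fold higher against a floor of 3 reads over the group. KO microglia held 7.71 ± 3.62 (4.91 to 11.8), a log2 rise of 3.04 ± 0.37 (adjusted p = 6.96e-06, limma). The size of that rise depends on the pseudocount. KO macrophages held 79.6 ± 32.5. Gdf9, a ligand best known from the oocyte, fell from 31.5 ± 7.46 to 13.6 ± 7.54 in KO macrophages (log2 -1.31 ± 0.45, adjusted p = 0.0369). That call was lost in 7 of 19 alternatives, and the difference was -0.76 without KO macrophage library 3 (adjusted p = 0.152). Lefty1, an inhibitor of Nodal and the only testable gene of its list, was named after its values were seen. It held 19.6 ± 7.06 normalized counts in WT microglia and 1.31 ± 1.14 (0 to 1.97) in KO microglia. Only the 3 WT microglia libraries reached 10 normalized counts. Lefty1 was thus tested through the group where it was high, and no p-value is given. The size of its log2 difference (-3.26 ± 0.69) depends on the pseudocount.

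Of 5 testable other receptors and co-receptors, 3 fell and none rose in KO microglia, beside 20.6% lower and 21.9% higher among all tested genes. In KO macrophages none fell and 2 rose, beside 15.4% and 16%. Eng, which encodes endoglin, a co-receptor of Acvrl1, fell from 626.4 ± 35.6 to 187.2 ± 18.5 in microglia (log2 -1.74 ± 0.14, adjusted p = 7.67e-08, limma) and rose from 70.3 ± 16.2 to 182.1 ± 15.7 in macrophages (1.38 ± 0.14, adjusted p = 3.26e-06). The interaction was 3.12 ± 0.20 (adjusted p = 3.22e-08), and the 2 KO groups ended at close levels. Acvrl1 and Eng, partners on the cell surface, therefore moved in opposite directions in KO microglia. Neo1 encodes neogenin, a receptor that works with the BMP co-receptors of the RGM family. It held 54.3 ± 10.3 normalized counts in WT microglia and 6.44 ± 0.128 in WT macrophages. KO microglia held 71.8 ± 18.5 and KO macrophages 7.67 ± 2.53. The log2 differences were -2.88 ± 0.30 in WT and -3.09 ± 0.30 in KO, or -2.10 and -2.34 with a pseudocount of 8. Neo1 reached 10 normalized counts in the microglia libraries alone. It was thus tested through the cell type where it was high, and no p-value is given. Rgmb, a co-receptor of the RGM family, fell by 1.24 ± 0.19 in KO microglia (adjusted p = 8.04e-05, limma). There Acvr2b, a type II receptor for activins, fell by 0.91 ± 0.24 (adjusted p = 0.00659). Acvr1b, which encodes the activin type I receptor ALK4, rose by 0.61 ± 0.13 in KO macrophages (adjusted p = 0.00275). None of the 2 testable of 15 extracellular antagonists passed in any comparison.

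Among the Smads, 3 of 4 testable genes other than Smad1 fell in KO microglia, beside 20.6% lower among all tested genes. None passed in KO macrophages, where 31.4% of all tested genes were called. Smad3, of the activin and TGF-beta side, fell from 844.9 ± 112 to 419.6 ± 19.5 normalized counts in microglia (log2 -1.0005 ± 0.11, adjusted p = 2.95e-06, limma). Smad5, the close relative of Smad1, fell from 374.0 ± 22.4 to 235.8 ± 17.3 (-0.66 ± 0.10, adjusted p = 8.39e-05). Smad2 fell by 0.27 (adjusted p = 0.04), a call that 12 of 20 alternatives lost. Smad4, the shared partner, did not pass in any comparison.

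Of 11 intracellular inhibitors, all testable, 6 fell and none rose in KO microglia and likewise in KO macrophages, beside 20.6% and 15.4% lower among all tested genes. The 6 were Smad6, Smad7, Smurf1, Smurf2, Ski and Skil. Smad7, which blocks type I receptors and is itself induced by TGF-beta, fell from 1042 ± 136 to 46.5 ± 11.6 normalized counts in microglia (log2 -4.48 ± 0.18, adjusted p = 1.9e-11, limma) and from 461.5 ± 33.4 to 85.2 ± 18.6 in macrophages (-2.45 ± 0.18, adjusted p = 8.83e-08). Smad6, which preferentially restrains BMP receptors, had 75 reads over the WT microglia and none over the KO microglia, at least 28.5-fold lower against a floor of 3 reads over the group; its microglia values were looked at after they were seen. In macrophages Smad6 went from 40.4 ± 12.4 to 7.29 ± 7.001, a log2 difference of -2.98 ± 0.72. KO macrophage library 1 held none, and without it the difference was -1.80. Smad6 was tested through the WT libraries, where it was high, and no p-value is given. Skil, a nuclear repressor of Smads, fell by 2.69 ± 0.21 in microglia (adjusted p = 3.53e-08) and by 1.85 ± 0.21 in macrophages (adjusted p = 6.98e-06), and Ski fell by 1.69 ± 0.11 in microglia (adjusted p = 5.55e-09).

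**Figure D4:**
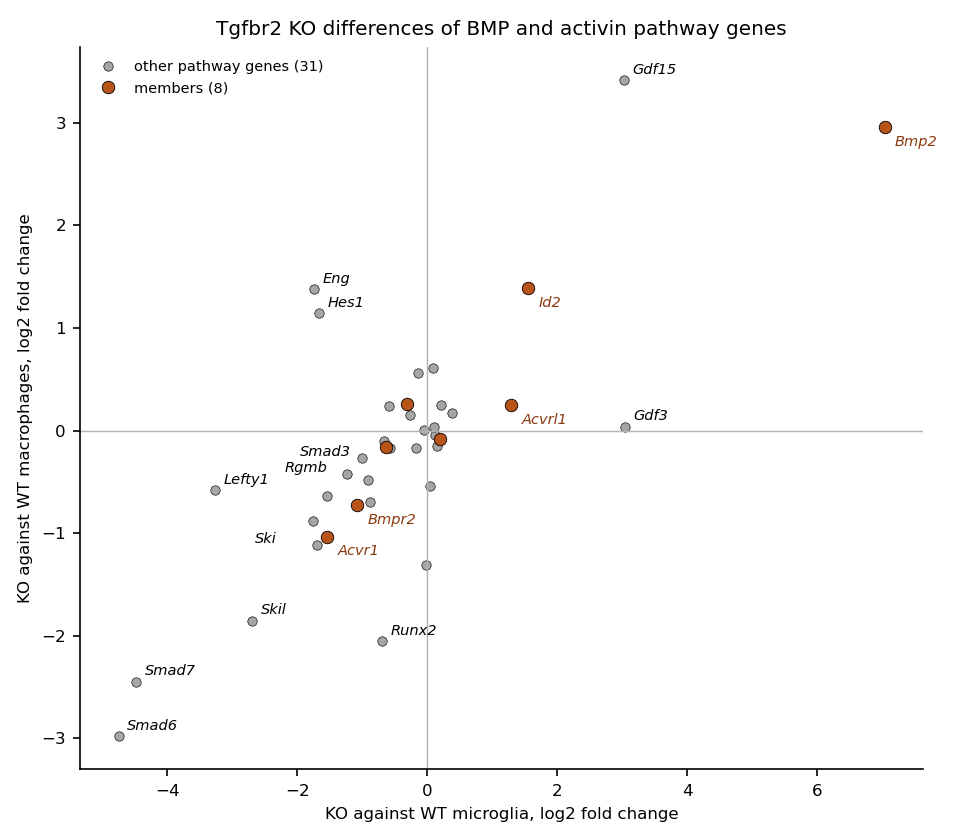
Log2 fold change of KO against WT in microglia (horizontal axis) and in macrophages (vertical axis) for 8 tested genes of the branch (large points) and 31 other pathway genes (small points). Bmp2 and Id2 lie up and to the right, Smad6, Smad7 and Skil down and to the left, and Eng and Hes1 fell in microglia and rose in macrophages, the Hes1 rise not passing without KO macrophage library 1 (adjusted p = 0.0563).

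Of 10 other BMP target genes, 2 could be tested. Hes1, a repressor better known from Notch signalling, fell in KO microglia from 76.4 ± 7.19 to 23.8 ± 5.43 (log2 -1.66 ± 0.35, adjusted p = 0.00123, limma). In KO macrophages it rose from 68.0 ± 4.98 to 179.4 ± 134.7 (1.14 ± 0.35, adjusted p = 0.0225), but this rested on KO macrophage library 1 at 334.5; without it the difference was 0.57 (adjusted p = 0.0563), and the call was also lost without WT macrophage library 1 (0.0533) or 2 (0.0701). Runx2, a bone-lineage transcription factor gene, held 122.3 ± 6.79 normalized counts in WT macrophages and 8.57 ± 1.01 in WT microglia, a log2 difference of 3.69 ± 0.30. Runx2 passed the minimum through the macrophage libraries, where it was high, and no p-value is given for that difference. In KO macrophages it fell by 2.05 ± 0.30 (adjusted p = 8.82e-05, limma). Of the E protein genes that Id proteins hold in check, Tcf3 fell by 0.57 ± 0.13 in KO microglia (adjusted p = 0.00271) and Tcf4 by 0.54 ± 0.11 in KO macrophages (adjusted p = 0.00217); the other two in each comparison did not pass. In WT macrophages against WT microglia, Tcf12 was higher by 0.29 ± 0.09 (adjusted p = 0.0214, limma) and Tcf4 by 0.31 ± 0.11 (adjusted p = 0.0417). Tcf3 was lower there, with a log2 difference of -0.46 ± 0.13 (adjusted p = 0.0136). These calls were lost in 4 (Tcf12), 9 (Tcf4) and 1 (Tcf3) of 20 alternatives.

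Markers of other brain cells also differed between genotypes. The 6 astrocyte markers summed to 50.2 to 113.8 normalized counts in WT microglia and 191.7 to 274.1 in the KO, and to 44.6 to 66.1 in WT macrophages and 135.7 to 192.1 in the KO. The 6 neuron markers summed to 14.1 to 19.3 and 92.4 to 126.8 in microglia, and to 30.04 to 54.6 and 66.8 to 123.2 in macrophages. The 6 oligodendrocyte markers summed to 417.1 to 430.1 and 493.6 to 565.9 in microglia, and to 338.6 to 365.4 and 370.6 to 649.9 in macrophages. Of the testable markers, 3 of 4 for astrocytes, 4 of 4 for neurons and 3 of 5 for oligodendrocytes were called higher in KO microglia. There 1 oligodendrocyte marker was lower, and 21.9% of all tested genes were higher and 20.6% lower. In KO macrophages 3 of 4, 2 of 4 and 3 of 5 were called higher, beside 16% of all tested genes. Genes of the mitochondrial genome took 3.86% to 4.36% of the reads in genes in WT microglia and 5.84% to 7.68% in KO microglia, and 3.18% to 5.35% in WT and 4.61% to 6.43% in KO macrophages. The part of these markers and of the mitochondrial share in the differences of Bmp2, Id2 and the receptor genes was not tested. Ddx3y, a Y-linked gene, exceeded 100 normalized counts in all 3 KO microglia libraries and in 1 library of each other group; with its level as a covariate the log2 rise of Bmp2 was 7.31 in microglia and 2.88 in macrophages.

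The transcripts whose profile over the 12 libraries was most like that of each gene were taken by the root mean square difference of mean-centred log2 values among 6641 genes. For Bmpr1a they were Sgce (0.64), Nbea (0.79) and Pard3b (0.91). Sgce had 301.7 and 159.1 normalized counts in WT and KO microglia against 2.25 and 1.01 in WT and KO macrophages. For Bmp2 they were Ifitm3 (0.69), Pltp (0.75) and Adam22 (0.76), and for Id2 they were Cd68 (0.24), Cndp2 (0.24) and Ccl2 (0.27). Cd68, a lysosomal glycoprotein of macrophages, averaged 1720 normalized counts in WT microglia and 4217 in the KO, and 1569 in WT macrophages and 3594 in the KO. The nearest transcripts were Srgap2 (0.14) for Acvr1, Akap13 (0.10) for Bmpr2, Ralgds (0.20) for Acvrl1, Pbx2 (0.10) for Acvr2a and Kpna3 (0.07) for Smad1. These distances describe the same 12 libraries and carry no test.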

How the data were processed

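The authors deposited log2 values of gene counts. The submitters' processing notes name STAR, CASAVA and bcl2fastq and the build GRCm38. Versions, the strand setting, the annotation and the tools for counting and normalizing were not given in the sources used here. Undoing the log of the deposited log2 values (pseudocount 1) turned 100% of 310848 values into whole multiples of a step per library (tolerance 0.01 reads), so the unit was log2(count / size factor + 1) and reads could be recovered. Symbols, positions and exon lengths came from GENCODE mouse release 21.

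Genes with at least 10 normalized counts in at least 3 libraries were tested (12519; 13385 were not) with limma 3.58.1 in R 4.3.3, with 1 mean per group, a mean-variance trend, 8 residual degrees of freedom and an adjusted p threshold of 0.05. Titles carry no replicate numbers and all samples have 1 lane label, so no pairing or batch entered the model; libraries are numbered in accession order. Count-based intervals and floors cover counting error alone, as no molecular identifiers mark PCR copies. Python 3.11.15 with pandas 2.3.3, numpy 2.4.6, matplotlib 3.10.9 and scipy 1.17.1 served for the rest. The model was tested on simulated data.

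Members and lists were chosen with earlier results of these data known. Besides the 10 genes, the named genes were, from each list, up to 3 called genes with the largest rise and up to 3 with the largest fall per comparison whose higher group averaged at least 30 normalized counts, and the transcripts of most similar profile whose highest group averaged at least 100, leaving out symbols of Gm and digits or ending in Rik; not every such gene is described in every comparison. Alternatives varied the pseudocount (8), the minimum (none, or 50), the scaling (library total, quantiles), robust moderation, a Ddx3y covariate, the groups in the model and each library left out in turn. Those for the genes of the lists were added after seeing the data.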

Additional observations from a re-analysis of the deposited data

Results flagged for a closer look

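The knockout effect differed between the cell types for 4 of 8 tested genes of the branch and 13 of 31 other pathway genes by the interaction of the limma model (adjusted p under 0.05), beside 25.8% of all tested genes. Each value is the log2 effect in macrophages minus that in microglia, so a positive value means a smaller fall, or a larger rise, in macrophages. Among the genes of the branch these were Bmp2 (-4.08), Acvrl1 (-1.04), Smad1 (0.48) and Acvr2a (0.58), of which Bmp2 and Acvrl1 passed in 19 of 19 alternatives.

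Of the other pathway genes, those that the naming rule takes were Eng (3.12), Hes1 (2.80), Smad7 (2.03), Smurf1 (0.905), Skil (0.84), Rgmb (0.81), Smad3 (0.73), Smad5 (0.56) and Smad2 (0.42) on the positive side, and Gdf3 (-3.01), Runx2 (-1.36) and Tcf4 (-0.58) on the negative side; the one left was Ski (0.58). The calls of Smad2 (15 of 19 alternatives), Acvr2a (14 of 19), Rgmb (13 of 19), Skil (13 of 19), Runx2 (7 of 19) and Smad1 (5 of 19) were lost in the stated number of alternatives. Tcf4 lost its call with the Ddx3y covariate (-0.48, adjusted p = 0.0759). Gdf3 lost its call with a pseudocount of 8 (-0.91, adjusted p = 0.0686), and its WT microglia libraries held no reads, so the size of its effect there depends on the pseudocount.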

How the results depend on the processing

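In KO against WT microglia, KO against WT macrophages and WT macrophages against WT microglia, the number of tested members called stayed at 6 to 7, 4 and 5 to 6 in all 20 alternatives of each. In KO macrophages against KO microglia it was 3, and 2 to 5 with a single library left out, the highest without KO macrophage library 1. For the interaction it was 4, fell to 2 with no filter on low values, with scaling by library total and with the Ddx3y covariate, and was 2 to 6 with a single library left out, the lowest without WT microglia library 2. Only values far from any call changed sign. Bmpr1a in KO against WT macrophages, at 3 and 4 reads, turned to 0.0045 with a pseudocount of 8 and 0.0023 with quantile normalization, and ran from -0.3521 to 0.3763 with a single library left out (0.0138 without WT macrophage library 2, 0.3763 without KO macrophage library 1). Its interaction ran from -0.54 to 0.1885, the latter without KO macrophage library 1. Smad1 between the KO cell types ran from -0.1166 to 0.0183, the latter without KO macrophage library 3, and the Id2 interaction from -0.4692 to 0.0315, the latter without KO macrophage library 2. The cause was not tested. Scaling by library total moved the share of higher genes among all called in KO against WT macrophages from 50.9% to 40.9%. Of the pathway genes, 8 were called between the KO cell types, and 5 when only those 2 groups entered the model. No paired analysis was possible because the titles carry no replicate numbers. Depth limits Id1, Id3 and, in macrophages, Bmpr1a.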
